A study of Homo sapiens with 7 samples.

Results

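Maternally methylated imprinted regions are stretches of DNA that carry methylation on the copy inherited from the mother and none on the copy from the father. The 10 regions described here, at PLAGL1, GRB10, PEG10, MEST, KCNQ1OT1, SNRPN, ZNF331, PEG3, NNAT and L3MBTL1, were chosen by name and by fixed spans of the human genome (build hg19). They held 455 CpGs covered by at least 10 reads in every one of the 7 libraries, of 1734462 such CpGs in all, and 620 CpGs read in any library, of 2586954. The series used HUES8, a human embryonic stem cell line in long use, either as a triple knockout of TET1, TET2 and TET3 (TKO) or as wild type (WT). TKO cells were measured at day 0 as stem cells (SC), at day 3 as cardiac mesoderm (CME) and at day 8 as cardiac progenitors (CP), and WT cells at these stages and at day 14 as beating cardiomyocytes (CM). Differentiation was driven in both genotypes by switching the Wnt pathway on with CHIR99021 and then off with IWP2. There was 1 library per genotype and stage, so no value below has a replicate, and whether the TKO cells were 1 clone is not given in the sources used here.

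Methylation was read by enhanced reduced representation bisulfite sequencing, which covers CpG-rich fragments and reads an unmethylated cytosine as T. The level of a region is its methylated reads as a percent of its methylated plus unmethylated reads, over the CpGs shared by all 7 libraries. The method does not separate 5-methylcytosine from 5-hydroxymethylcytosine, the product of TET enzymes, and the files do not tell the parental copies apart. An intermediate level is therefore the only trace that a region methylated on 1 copy leaves in these data. The median depth of the CpGs in the regions was 102, 110 and 83 reads in the TKO SC, CME and CP libraries, against 48, 57, 86 and 94 reads in the WT SC, CME, CP and CM libraries. In the mitochondrial genome, taken as a measure of cytosine left unconverted, 0.141%, 0.387% and 0.139% of reads were C in TKO (SC, CME, CP), against 1.46%, 1.44%, 0.219% and 0.216% in WT (SC, CME, CP, CM). The WT SC and WT CME libraries also carry a suffix in their descriptions that the other 5 lack. Their comparisons with other libraries cannot be told apart from that difference.

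Imprints of this kind are laid down in the oocyte and survive the wave of demethylation that follows fertilisation. The zinc finger protein ZFP57 binds the methylated form of the motif TGCCGC and, with the corepressor TRIM28, keeps the mark on the maternal copy. TET enzymes oxidise 5-methylcytosine, the first step of active demethylation, and are known for erasing imprints in the germ line of the mouse. In the regions described here the unmethylated paternal copy is usually the one whose promoter is active.

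For 4 of the 10 regions a RefSeq promoter window (build GRCh38.p14) could be laid on the measured CpGs, by matching the spacing of its CpGs alone. A placement counted only if every CpG read there matched, so a full match is part of the rule. It rested on 32 CpGs at PLAGL1, 12 at GRB10, 7 at MEST and 12 at SNRPN, and was unique each time. Of 33 windows tried, those of partner genes included, 7 were placed. The 250 bases before the start are shown because they set a promoter read as almost unmethylated in all 7 libraries (PLAGL1) beside 3 that were read at intermediate levels. Capitals mark the CpGs among the 455.
PLAGL1, GRCh38 chr6:144008260-144008509, minus strand: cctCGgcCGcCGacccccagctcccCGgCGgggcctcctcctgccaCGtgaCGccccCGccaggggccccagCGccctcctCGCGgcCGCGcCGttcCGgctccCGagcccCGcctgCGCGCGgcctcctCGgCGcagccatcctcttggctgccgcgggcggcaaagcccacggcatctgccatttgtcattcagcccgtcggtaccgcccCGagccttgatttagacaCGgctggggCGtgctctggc
GRB10, GRCh38 chr7:50782897-50783146, minus strand: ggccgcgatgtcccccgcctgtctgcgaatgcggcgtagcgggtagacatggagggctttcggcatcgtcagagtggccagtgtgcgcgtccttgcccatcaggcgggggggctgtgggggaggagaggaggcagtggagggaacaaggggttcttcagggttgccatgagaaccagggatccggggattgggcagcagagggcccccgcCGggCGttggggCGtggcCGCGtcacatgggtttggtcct
MEST, GRCh38 chr7:130491079-130491328, plus strand: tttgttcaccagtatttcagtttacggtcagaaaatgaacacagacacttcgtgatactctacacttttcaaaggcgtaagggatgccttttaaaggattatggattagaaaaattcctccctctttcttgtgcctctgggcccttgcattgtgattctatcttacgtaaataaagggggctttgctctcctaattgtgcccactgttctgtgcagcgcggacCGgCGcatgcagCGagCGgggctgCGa
SNRPN, GRCh38 chr15:24954737-24954986, plus strand: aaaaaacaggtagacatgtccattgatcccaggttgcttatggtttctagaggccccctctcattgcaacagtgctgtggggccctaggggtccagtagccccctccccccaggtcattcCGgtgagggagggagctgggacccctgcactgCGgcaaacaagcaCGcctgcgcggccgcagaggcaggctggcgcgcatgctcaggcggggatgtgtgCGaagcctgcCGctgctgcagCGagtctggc

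Over the whole 300 base window, the PLAGL1 promoter was at 1.34%, 1.42% and 1.58% in TKO (SC, CME, CP), against 1.54%, 1.26%, 0.0246% and 0.277% in WT (SC, CME, CP, CM). The same start serves HYMAI, the non-coding partner of PLAGL1. The GRB10 promoter was at 44.3%, 38.1% and 39.7% in TKO (SC, CME, CP), against 47.8%, 42.6%, 44.4% and 51.0% in the 4 WT libraries in stage order. The MEST promoter was at 34.5%, 26.6% and 50.9% in the TKO libraries, against 59.8%, 51.4%, 35.3% and 37.2% in the WT libraries. The SNRPN promoter was at 22.7%, 21.5% and 37.0% in the TKO libraries, against 33.9%, 25.5%, 33.3% and 40.1% in the WT libraries. On pooled reads MEST and SNRPN thus lay lower in TKO than in WT at SC and CME and higher at CP. The first 9 CpGs of SNRPN, all within its window, were at 23.6% in TKO CP against 26.9% in WT CP. The CP order at SNRPN thus also moves with the share of reads that each CpG received. A second window in the MEST region, that of the non-coding MESTIT1 on the other strand, was placed on 13 CpGs by the same rule. This window was at 22.4%, 38.3% and 51.3% in TKO, against 37.7%, 29.5%, 45.7% and 37.8% in WT. It lay lower in TKO at SC and higher at CME and CP, so the 2 windows differed in the direction of the genotype difference at CME. Searched on both strands, the ZFP57 motif TGCCGC occurred 2 times in the PLAGL1 window, 2 times in the SNRPN window and 0 times in the GRB10 and MEST windows, and 16.7% of 34943 promoter windows held it. The windows of ZNF331 and L3MBTL1 could not be placed.

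**Figure D1:**
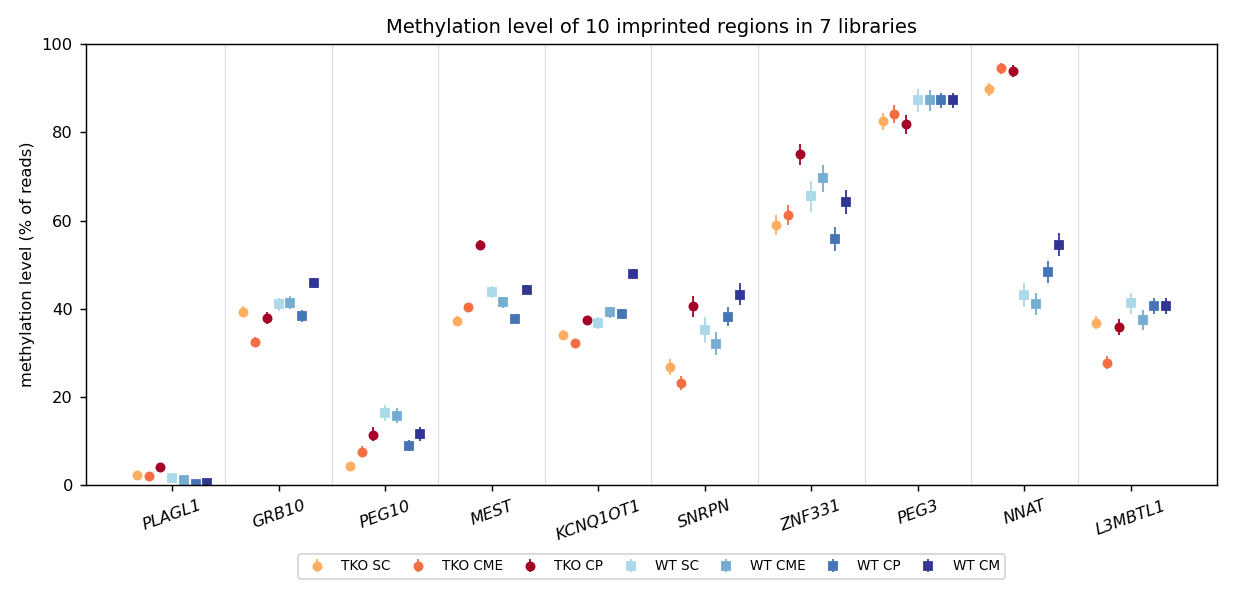
Methylation level (percent of reads) of each of the 10 regions in the 3 TKO libraries (circles) and the 4 WT libraries (squares). Bars are 95% Wilson intervals for counting error. NNAT stands at 89.7% to 94.5% in TKO and at 41.1% to 54.6% in WT, while PLAGL1 lies under 5% throughout.

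Taken over the whole span, 7 of the 10 regions were read at intermediate levels in WT cells, and 3 were not, so the label holds for the methylation of these cells in part only. GRB10, MEST, KCNQ1OT1, SNRPN, ZNF331, NNAT and L3MBTL1 lay between 32.1% and 69.7% in every WT library. PLAGL1 was at 0.418% to 1.77%, PEG10 at 8.87% to 16.3%, although 7 of its 23 CpGs together were at 31.4% to 34.5%, and PEG3 at 87.4% in all 4. Of the 455 CpGs, 44.4%, 32.7% and 55.2% were at 30 to 70% methylation in TKO (SC, CME, CP), against 58.0%, 58.5%, 60.9% and 63.7% in WT (SC, CME, CP, CM). Over all CpGs of the table this share was 4.93% to 5.57% in TKO and 4.52% to 5.93% in WT, so intermediate CpGs were common in these regions in all 7 libraries. The share in the regions was lower in TKO than in WT at each of the 3 stages, and at CME most of that came with CpGs under 30%, which numbered 254 in TKO and 156 in WT.

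NNAT encodes neuronatin, a small membrane proteolipid of the brain and other tissues, and lies within the gene BLCAP. It was the 1 region of the 10 whose level differed between genotypes by 25 points or more, and it did so at every stage. Its 18 CpGs (hg19 chr20:36148649-36149944) were read at 89.7%, 94.5% and 93.9% in TKO (SC, CME, CP), against 43.1%, 41.1%, 48.4% and 54.6% in WT (SC, CME, CP, CM). Every TKO level was above every WT level. The difference was 46.6 points at SC, with a 95% Newcombe interval of 43.5 to 49.6, then 53.4 points at CME (50.7 to 56.1) and 45.6 points at CP (42.7 to 48.3). A read that spans several CpGs is counted at each of them, so these intervals are too narrow. With the reads of the deepest CpG alone as the number of reads, they became 36.7 to 55.5 points at SC, 43.9 to 61.2 at CME and 35.0 to 54.8 at CP.

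The difference was shared by all the NNAT CpGs. Each of the 18 was higher in TKO by 25 points or more at each stage, with differences of 31.7 to 65.7 points at SC, 41.2 to 71.2 at CME and 29.6 to 60.7 at CP. Single CpGs ranged from 84.0% to 100% in TKO SC, from 86.9% to 100% in TKO CME and from 88.0% to 100% in TKO CP. In WT they ranged from 28.0% to 54.1% in the SC library, 28.8% to 58.8% in the CME library, 37.1% to 58.3% in the CP library and 46.3% to 62.3% in the CM library. No CpG of NNAT in TKO was in the range of any CpG of NNAT in WT.

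**Figure D2:**
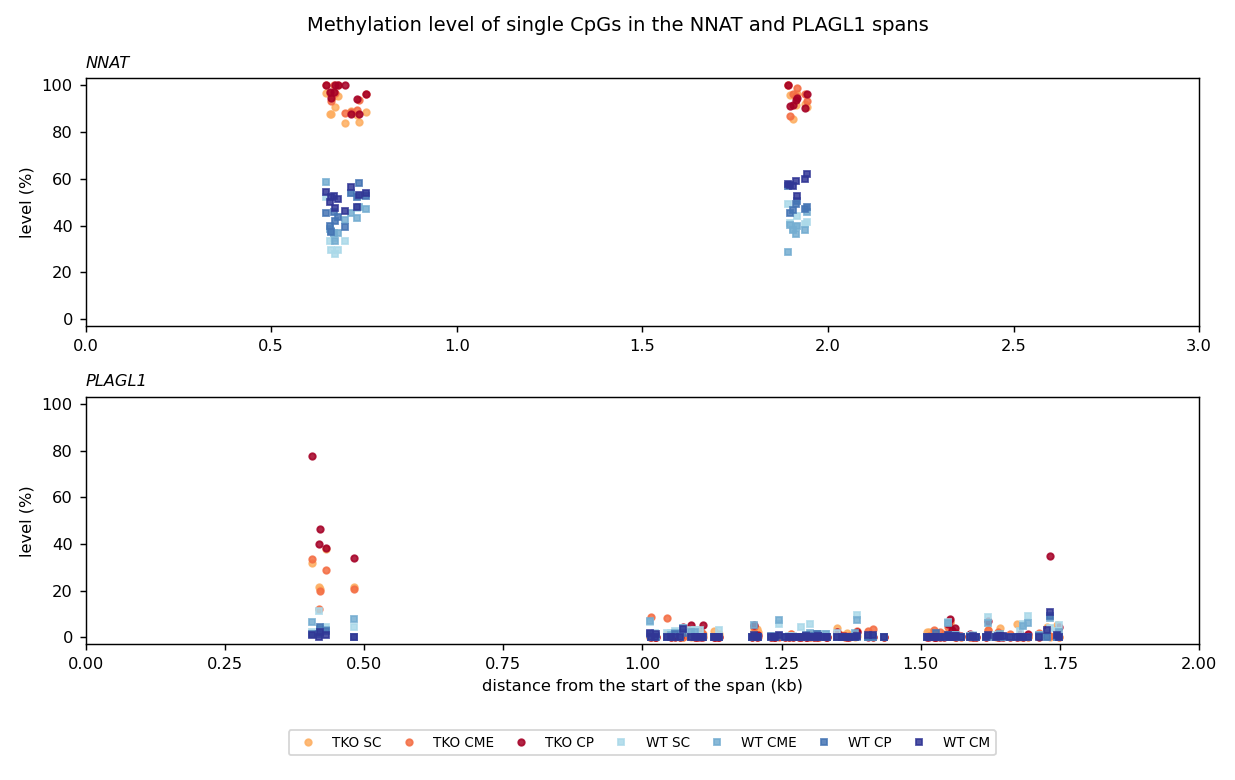
Methylation level (percent of reads) of single CpGs against distance from the start of the span (kb) at NNAT and PLAGL1, with TKO libraries as circles and WT libraries as squares. All NNAT CpGs lie at 84.0% or above in TKO and at 62.3% or below in WT, and at PLAGL1 the highest TKO points belong to 5 CpGs near 0.4 kb, with 1 more CpG of TKO CP farther on.

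The change was set against the whole genome in 1 kb tiles. Reads were summed over each tile that held 5 or more of the shared CpGs, 85087 tiles in all, of which 19 lay in the 10 spans. Each pair of libraries was compared by Fisher's exact test, two-sided, with Benjamini-Hochberg adjustment over all tiles, and calls needed an adjusted p below 0.01 together with at least 25 points of difference. Such a test compares 2 libraries, not 2 conditions, and covers counting error only.

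Of all tiles, 6.26% were called higher in TKO SC than in WT SC, and 2 of the 19 tiles in the regions were, both at NNAT (43.6 points, adjusted p = 3.53e-84 by Fisher's exact test, and 51.5 points, adjusted p = 5.43e-37). At CME 6.02% of all tiles were called higher in TKO, and again these were the 2 NNAT tiles, with 49.0 points (adjusted p = 4.51e-98) and 56.2 points (adjusted p = 8.80e-118). At CP 12.0% of all tiles were called higher, and 3 of the 19, namely the NNAT tiles with 46.2 points (adjusted p = 8.83e-88) and 45.0 points (adjusted p = 7.57e-80) and 1 of the 2 PLAGL1 tiles. The background of tiles called lower in TKO was 0.119%, 0.0846% and 0.0458% at these stages in order, and 0 of the 19 were called lower at each stage. By adjusted p alone, whatever the size, 3 of the 19 were higher and 7 lower at SC, 4 higher and 10 lower at CME, and 9 higher and 2 lower at CP. By the same criterion 17.1% of all tiles were higher and 23.6% lower at SC, 16.5% and 27.7% at CME, and 39.3% and 3.59% at CP.

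A limma model of genotype plus stage over the 6 SC, CME and CP libraries, on the arcsine square root scale, called the same 3 tiles higher in TKO. The NNAT tiles differed by 46.3 points (limma adjusted p = 0.000147) and 50.9 points (limma adjusted p = 0.000127), and the PLAGL1 tile by 29.5 points (limma adjusted p = 0.00562). It called 6.04% of all tiles higher and 0.0388% lower, and none of the 19 lower. In this model the 3 stages of each genotype served as its replicates, since no library had a replicate of its own. The limma p-values thus rest on the spread among these stages. Whether the difference holds over independent clones or differentiations was not tested.

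Tiles at an intermediate level have room to move in both directions. Here they were picked by WT CM, the last stage, so they need not have been intermediate at SC, CME or CP. In WT, 3.38% of all tiles were called lower at CP than at CME. The picked tiles are thus not matched on the level from which they start. Of the 6741 tiles at 30 to 70% in WT CM, a library that takes no part in these pairs, 16.0% were called higher in TKO at SC, 13.8% at CME and 58.3% at CP. Of the 14 such tiles in the regions, 2 were called at each stage, both at NNAT. The other 12 were not called at any of the 3 stages. Whether the regions as a group differ from such tiles was not tested.

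**Figure D3:**
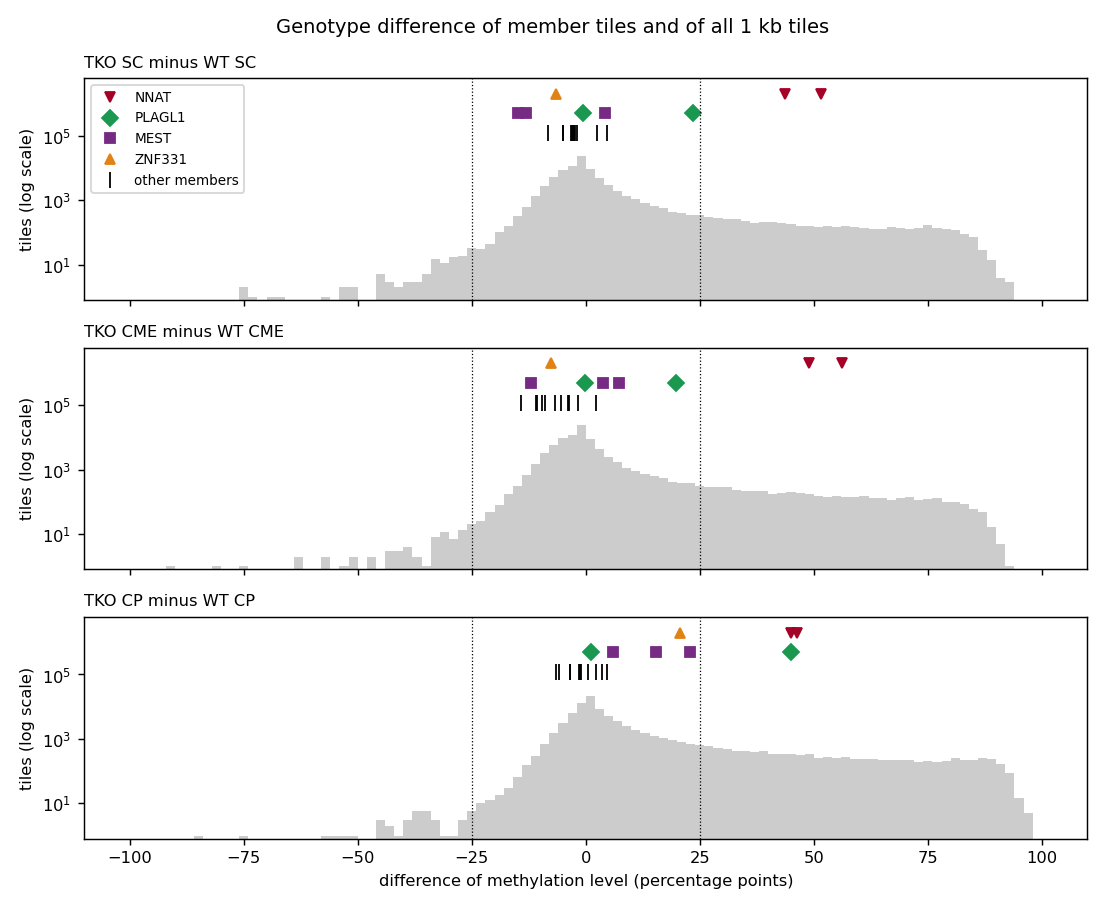
Histogram of the difference in methylation level (percentage points) between TKO and WT for 85087 tiles of 1 kb at SC, CME and CP, with the number of tiles on a log scale and the 19 tiles in the imprinted regions marked above it. Dotted lines stand at 25 points on either side of 0. Both NNAT tiles lie beyond the right line at each stage and 1 PLAGL1 tile beyond it at CP.

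PLAGL1 encodes a zinc finger transcription factor that restrains cell growth, and loss of methylation at its imprinted promoter is found in transient neonatal diabetes. Its 90 CpGs together were almost unmethylated, at 2.41%, 2.13% and 4.10% in TKO (SC, CME, CP), against 1.77%, 1.26%, 0.418% and 0.470% in WT (SC, CME, CP, CM). The tile that holds 85 of them, promoter included, was at 0.972%, 0.979% and 1.42% in TKO, against 1.61%, 1.12%, 0.287% and 0.433% in WT. The remaining 5 CpGs, within hg19 chr6:144328406-144328482, made up the other tile and were at 28.3%, 24.1% and 47.4% in TKO (SC, CME, CP), against 4.81%, 4.23%, 2.33% and 1.03% in WT (SC, CME, CP, CM). The TKO levels of this tile were above all WT levels. The difference was 23.5 points at SC (adjusted p = 1.69e-16 by Fisher's exact test) and 19.8 points at CME (adjusted p = 2.37e-15), both under the size needed for a call, and 45.1 points at CP (adjusted p = 2.74e-89). At CP the 5 CpGs ranged from 33.8% to 77.7% in TKO and from 0% to 4.52% in WT. The 5 CpGs lie so close together that one read can cover several of them, so they are not independent readings.

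MEST encodes a protein of the hydrolase fold that is expressed from the paternal copy in the embryo. Its 88 CpGs were at 37.3%, 40.4% and 54.5% in TKO (SC, CME, CP), against 43.9%, 41.5%, 37.8% and 44.4% in WT (SC, CME, CP, CM). TKO CP was the highest of the 7 libraries, and TKO SC and WT CP were the lowest. TKO was lower than WT by 6.57 points at SC (the difference is -6.57, with an interval of -8.28 to -4.87), differed by -1.10 points at CME, where the interval of -2.70 to 0.489 took in 0, and was higher by 16.7 points at CP (15.2 to 18.1, or 7.73 to 25.2 with the reads of the deepest CpG alone). At CP 80 of the 88 CpGs were higher in TKO than in WT, and 7 were lower. At CME the 3 tiles of MEST differed by 3.86, -11.9 and 7.19 points, so the sign varied along the region. They were 5.88, 15.3 and 22.8 points higher in TKO CP, in the order of their position. On pooled reads of both strands none reached the size for a call. The last of them was called with means over CpGs (27.5 points) and on the plus strand alone (29.2 points). It was also called with its deepest CpG alone (41.0 points). On the minus strand alone no MEST tile was called at CP.

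ZNF331 encodes a zinc finger protein of the KRAB class, whose members are mostly repressors. Its 16 CpGs were at 59.0%, 61.3% and 75.0% in TKO (SC, CME, CP), against 65.6%, 69.7%, 55.8% and 64.3% in WT (SC, CME, CP, CM). TKO lay below WT at SC and CME and above it at CP, where the difference was 19.2 points (15.5 to 22.8, or 8.93 to 29.1 with the reads of the deepest CpG alone). The region held a slope rather than 1 level. Its first 8 CpGs were at 81.4%, 79.1% and 90.3% in TKO, against 85.3%, 86.1%, 69.5% and 77.1% in WT. The last 8 were at 39.6%, 46.1% and 52.7% in TKO, against 38.5%, 50.1%, 42.1% and 48.3% in WT. The fall along these 468 bases of DNA was seen in all 7 libraries. The level of the whole region therefore also moves with the share of reads that each part received. As a mean over CpGs, CP was at 67.5% in TKO against 57.9% in WT, beside 75.0% and 55.8% on pooled reads. The median difference of the 16 CpGs at CP was 3.83 points, with 11 higher in TKO and 5 lower.

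Whether the genotypes drew apart between stages was tested directly, by a z test on the difference of 2 differences per tile with Benjamini-Hochberg adjustment over all tiles and the same thresholds. From SC to CP, 5.67% of all tiles were called as gaining methylation in TKO relative to WT, and 2 of the 19, 1 tile of MEST (28.3 points, adjusted p = 5.98e-57) and the tile of ZNF331 (27.3 points, adjusted p = 1.33e-19), while 0.108% of all tiles and 0 of the 19 were called as losing it. From CME to CP, 5.67% of all tiles were called, and 3 of the 19, the same MEST tile (27.2 points, adjusted p = 6.97e-55), the ZNF331 tile (28.4 points) and the PLAGL1 tile of 5 CpGs (25.2 points, adjusted p = 1.72e-16), while 0.0588% of all tiles and 0 of the 19 were called as losing it. From SC to CME the share called was 0.0259% as gaining and 0.0470% as losing, and 0 of the 19 were called, with 1 gaining and 1 losing by adjusted p alone, as 2.31% and 3.50% of all tiles did. With means over CpGs in place of pooled reads, the ZNF331 tile was called in neither change to CP. With both strands summed, the NNAT tiles were not called in any of these changes. Their genotype difference changed from SC to CP by 2.59 points (adjusted p = 0.479) and -6.44 points (adjusted p = 0.0999) by the z test. From CME to CP it changed by -2.82 points (adjusted p = 0.419) and -11.1 points (adjusted p = 0.000243), the second of which passed the p but not the size. On the plus strand alone that second tile was called as losing, by -29.8 points. With the WT SC and WT CME libraries carrying more unconverted cytosine, the changes from these stages cannot be told apart from that difference between libraries.

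KCNQ1OT1 is the long non-coding RNA that silences neighbouring genes on the paternal copy in cis, the growth inhibitor CDKN1C among them, and is read from within KCNQ1, a potassium channel gene of the heart. Its 83 CpGs were at 34.1%, 32.2% and 37.4% in TKO (SC, CME, CP), against 36.8%, 39.2%, 38.8% and 47.9% in WT (SC, CME, CP, CM). The genotype difference was -2.65, -7.03 and -1.41 points at the 3 stages, and the interval at CP took in 0. None of its 3 tiles was called. The highest level belonged to WT CM, a stage with no TKO library.

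GRB10 encodes an adaptor that restrains insulin and growth factor receptors. Its 59 CpGs were at 39.3%, 32.5% and 37.9% in TKO (SC, CME, CP), against 41.0%, 41.4%, 38.4% and 45.9% in WT (SC, CME, CP, CM). The genotype difference was -1.68 points at SC (interval -3.63 to 0.278), -8.93 at CME (-10.8 to -7.05) and -0.484 at CP (-2.32 to 1.36). Of these intervals, the one at CME excluded 0. At CP 22 of the 59 CpGs were higher in TKO and 37 lower, and 2 were higher by 25 points or more. These 2, picked out after their values were seen, were at 84.5% and 90.2% in TKO CP, against 41.3% and 51.7% in WT CP. They lie outside the GRB10 tile that was tested, which holds 57 CpGs.

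SNRPN encodes a splicing protein of neurons, and its start lies in the centre that controls imprinting in the Prader-Willi region. Its 19 CpGs were at 26.8%, 23.2% and 40.6% in TKO (SC, CME, CP), against 35.1%, 32.1%, 38.2% and 43.2% in WT (SC, CME, CP, CM). TKO was lower by 8.37 points at SC and by 8.93 at CME (differences of -8.37 and -8.93). The CP difference of 2.34 points had an interval of -0.874 to 5.55. At CP 8 of the 19 CpGs were higher in TKO and 11 lower. The first 9 were at 23.6% in TKO CP (284 reads) against 26.9% in WT CP (647 reads), and the last 10 at 44.1% against 44.0%. As a mean over CpGs, CP was at 35.3% in TKO against 36.5% in WT. The pooled level thus also moves with the share of reads in each part. Between the TKO libraries, CP was 17.4 points above CME (14.6 to 20.2). On pooled reads this was the widest step between neighbouring stages at any of the 10 regions in either genotype. As a mean over CpGs, TKO CP was at 35.3% and TKO CME at 21.8%, a smaller step than at MEST (56.8% and 41.4%).

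L3MBTL1 encodes a reader of methylated histones that compacts chromatin. Its 36 CpGs were at 36.8%, 27.8% and 35.9% in TKO (SC, CME, CP), against 41.2%, 37.5%, 40.6% and 40.7% in WT (SC, CME, CP, CM). On pooled reads the genotype difference was -4.38, -9.65 and -4.68 points at the 3 stages, and the interval excluded 0 each time. By tile it was -2.95 and -2.72 points at SC (adjusted p = 0.287 and 0.238 by Fisher's exact test), smaller than on pooled reads. By the same test it was -10.8 and -5.53 points at CME (adjusted p = 2.50e-06 and 0.00573). At CP it was -6.53 and -3.41 points (adjusted p = 0.0105 and 0.052 by that test). The pooled level thus also moves with the share of reads in each tile.

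PEG10 is a gene derived from a retrotransposon that the placenta of the mouse needs. Its 23 CpGs fell into a group of 16 that was nearly unmethylated and a group of 7 at intermediate levels. The 16 were at 0.820%, 2.44% and 4.17% in TKO (SC, CME, CP), against 3.44%, 6.34%, 0.622% and 1.68% in WT (SC, CME, CP, CM). The 7, about 2 kb farther along, were at 36.9%, 27.8% and 31.9% in TKO, against 34.5%, 31.4%, 33.0% and 33.5% in WT. The level of the whole span, 4.28%, 7.68% and 11.5% in TKO against 16.3%, 15.8%, 8.87% and 11.6% in WT, also moves with the share of reads that each group received. It is not read as a genotype difference for that reason.

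PEG3 encodes a zinc finger protein tied to maternal behaviour in mice. Its 23 CpGs were highly methylated, at 82.5%, 84.2% and 81.8% in TKO (SC, CME, CP), against 87.4% in each of the 4 WT libraries. The genotype difference was -4.84 points at SC (-7.91 to -1.53), -3.18 at CME (-6.30 to 0.0708) and -5.54 at CP (-8.26 to -2.84). At most 3 of the 23 were under 70% in any library. The lowest CpG in every library, picked out after its values were seen, was at 33.3%, 28.1% and 40.9% in TKO, against 14.3%, 11.4%, 42.5% and 47.1% in WT.

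**Figure D4:**
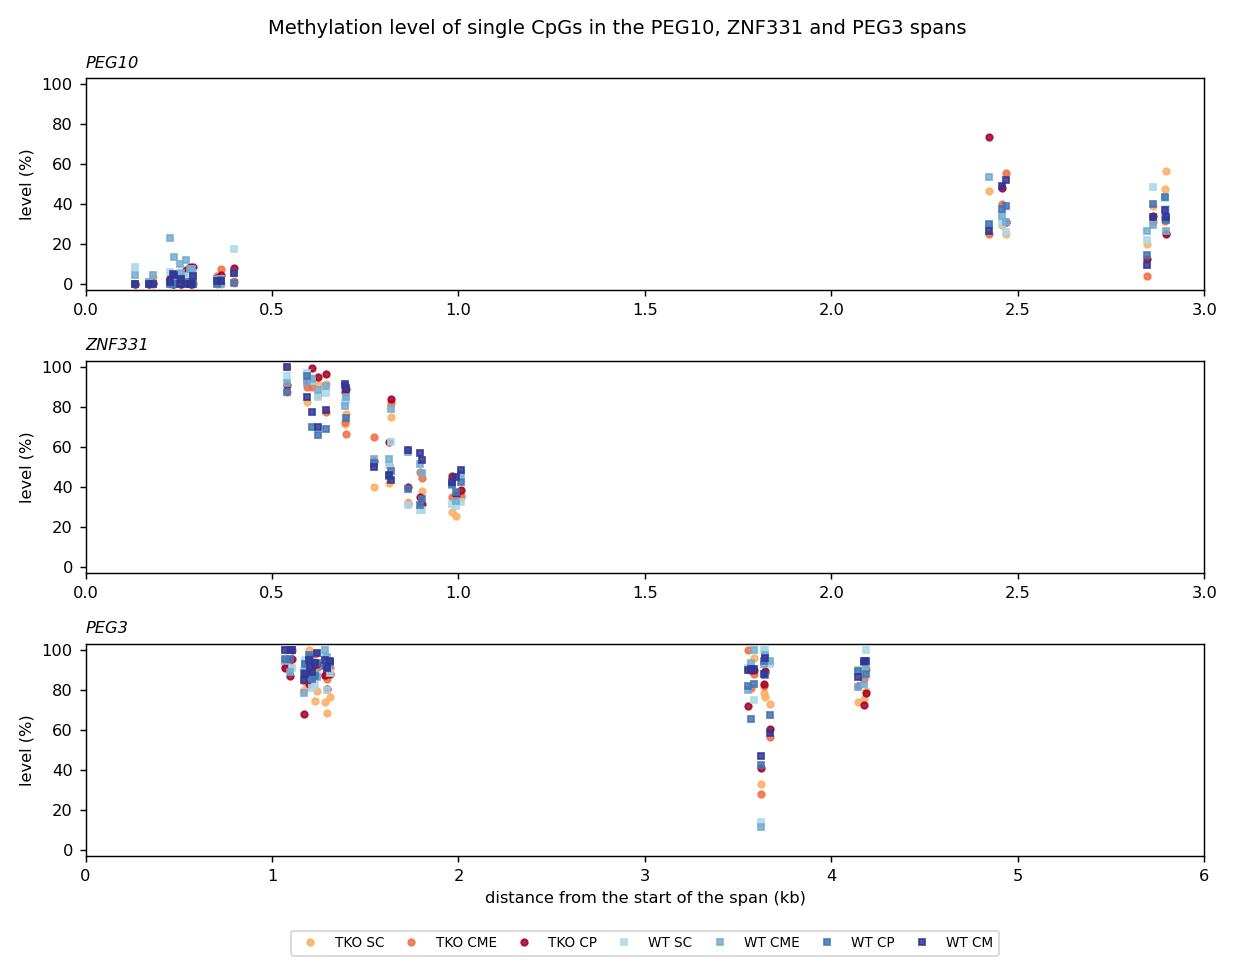
Methylation level (percent of reads) of single CpGs against distance from the start of the span (kb) at PEG10, ZNF331 and PEG3, in 3 TKO libraries (circles) and 4 WT libraries (squares). PEG10 has a group of CpGs near 0 and a group at intermediate levels, ZNF331 falls along 468 bases, and PEG3 is high at most CpGs.

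Across the 10 regions, the median genotype difference was -4.61 points at SC and -7.59 at CME, with 2 regions higher in TKO and 8 lower at each. PEG10, whose level also moves with the read share of its 2 groups of CpGs, is 1 of the 8, at -12.0 points at SC and -8.14 at CME. At CP the median was 2.49 points, with 6 higher and 4 lower. PEG10 and SNRPN, whose pooled levels also move with read share, are among the 6, at 2.63 and 2.34 points. With the reads of the deepest CpG alone as the number of reads, the intervals of the genotype difference at GRB10, KCNQ1OT1, PEG3 and L3MBTL1 took in 0 at every stage, and at MEST and ZNF331 they excluded it at CP alone. At SNRPN the interval then excluded 0 at CME alone, with an upper bound of -0.205 points. Over all tiles the median difference was -0.929, -1.04 and 1.30 points at SC, CME and CP, and over the 19 tiles in the regions -2.62, -3.91 and 2.34. With each level corrected by the mitochondrial C share of its library, the medians of the regions were -4.14, -6.84 and 2.55 points, and the counts of regions higher and lower did not change. The sign of the CP median turned in 1 setting, to -0.0825 points, when only CpGs at 30 to 70% over the WT libraries were kept, which left 8 regions.

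Within a genotype, the regions moved less than the size for a call at every step. In WT, 0 of the 19 tiles were called for CME against SC, CP against CME, CM against CP or CM against SC. The background of tiles called lower was 0.0118%, 3.38%, 0.0223% and 2.81% in these pairs, and of tiles called higher 0.0282%, 0.0294%, 0.0306% and 0.126%. By adjusted p alone, 1 of the 19 was higher and 0 lower for CME against SC, 4 higher and 6 lower for CP against CME, 7 higher and 1 lower for CM against CP, and 7 higher and 2 lower for CM against SC. Over all tiles these shares were 2.88% higher and 0.316% lower, 1.75% and 45.0%, 4.64% and 1.44%, and 4.21% and 36.9%, pair by pair. In CM against CP, 9 of the 10 regions were higher, with a median of 5.62 points. PLAGL1 and L3MBTL1 were among the 9, by 0.0524 and 0.0681 points, with intervals that took in 0. Over the 19 tiles the median was 3.67 points, and over all tiles 0.0939. In TKO, 0 of the 19 tiles were called for CME against SC (0.0223% of all tiles higher, 0.0188% lower) or for CP against CME (0.772% higher, 0.0599% lower). By adjusted p alone 5 of the 19 were higher and 5 lower for CME against SC, and 11 higher and 0 lower for CP against CME. Over all tiles 10.6% were higher and 6.88% lower in the first pair, and 23.6% and 4.97% in the second. In that pair 8 of the 10 regions were higher, with a median of 5.30 points. Over the 19 tiles the median was 5.70 points, beside 1.5 over all tiles.

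The DNA on either side of NNAT was read at a few CpGs. In the kb before the span, 8 CpGs were at 90.2%, 89.0% and 95.2% in TKO (SC, CME, CP), against 85.9%, 88.8%, 50.9% and 51.2% in WT (SC, CME, CP, CM). The genotype difference was 4.33 points at SC (adjusted p = 0.233 by Fisher's exact test) and 0.192 at CME (adjusted p = 1), and 44.3 points at CP (adjusted p = 2.78e-34), as WT fell by 37.9 points between CME and CP (difference -37.9, adjusted p = 6.31e-19 by Fisher's exact test). The change of the genotype difference from SC to CP in this tile was 40.0 points (adjusted p = 4.38e-17 by the z test). In the kb after the span, 4 CpGs were at 83.8%, 87.7% and 94.4% in TKO, against 58.4%, 67.2%, 48.4% and 53.1% in WT. In the 5th and 6th kb after the span, 7 and 35 CpGs were under 4% in all 7 libraries.

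At L3MBTL1, 4 CpGs in the 5th kb before the span were at 40.9%, 43.9% and 53.2% in TKO (SC, CME, CP), against 5.11%, 8.72%, 2.41% and 2.77% in WT (SC, CME, CP, CM), while the span itself was not higher in TKO. At KCNQ1OT1, 6 CpGs in the 4th kb before the span were at 13.9%, 14.4% and 52.9% in TKO, against 10.8%, 14.7%, 24.0% and 31.7% in WT. That tile was called at CP, 29.0 points higher in TKO than in WT (adjusted p = 1.64e-13 by Fisher's exact test). Of the 9 tiles within 10 kb of the spans that held 5 or more shared CpGs, 0, 0 and 2 were called higher in TKO at SC, CME and CP. None was called lower. The kb of 4 CpGs before L3MBTL1 and that of 4 CpGs after NNAT held too few and were not tested. Over all tiles 6.26%, 6.02% and 12.0% were called higher at these stages, and 0.119%, 0.0846% and 0.0458% lower.

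A further list of 15 imprinted regions was read for comparison, of which 8 of 11 maternally methylated and 3 of 4 paternally methylated ones had shared CpGs. None of these 11 differed between genotypes by 25 points. The maternally methylated 8 differed by -3.92 to 19.1 points at SC, -9.52 to 15.5 at CME and -5.05 to 23.1 at CP, with medians of 0.355, 2.89 and 10.1. The paternally methylated 3 differed by -8.79 to 3.23, -5.69 to 3.66 and -3.27 to 10.9 points at these stages. The nearest to NNAT, picked out after its values were seen, was GNAS XL, a start of the gene of a G protein subunit, at 46.3%, 42.2% and 49.5% in TKO against 27.1%, 26.6%, 26.4% and 27.5% in WT.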

How the data were processed

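DNA methylation was measured in 7 libraries, 1 for each genotype and stage, and groups follow the sample titles. WT CM is day 14 in the series text and D15 in its description, and its source label names CME. Alignment and methylation extraction were done by a core facility, per the labels' protocols. The build was hg19, per the submitters' processing notes. The sources used here do not give the aligner or caller. The deposited files give, per CpG cytosine and strand, the coverage as a read count that is not normalized as far as the values show, and the percent of reads with C and with T, as the authors called them, with 10 as the lowest coverage. The knockout was not checked, since the files hold no sequence or expression.

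Reads were recovered from coverage and percent (whole numbers in 100% of lines) and summed over both strands of a CpG. CpGs with 10 or more reads in all 7 libraries were used. Total coverage was 149053464 to 213058905 in TKO and 120742115 to 158372334 in WT libraries. Intervals (95%, Wilson for levels, Newcombe for differences) cover counting error only. Tile tests used 1 kb tiles with 5 or more CpGs and were tested on simulated data. The simulated reads were independent draws with no spread between libraries. They cannot show how the calls behave under such spread, or with reads shared by neighbouring CpGs. Tools were Python 3.11.15, scipy 1.17.1, numba 0.67.0, R 4.3.3 and limma 3.58.1. Promoter sequences are from RefSeq (GRCh38.p14). Of the 10 regions, 6 had a window in the table and 4 were placed. No coordinates were converted between builds, and no annotation of hg19 was used, so exons and introns are not given. PEG10, KCNQ1OT1, PEG3 and NNAT had no window. Alternatives were the coverage minimum, the size threshold, CpGs per tile, mean over CpGs, single strands, limma, other spans, a band of 20 to 80% and a correction for mitochondrial C, and, chosen after seeing the data, the deepest CpG of each tile alone. The regions and lists were chosen with earlier results of these data known. All 10 regions are named, tiles in them where called, and of the other imprinted regions only those past 25 points, with exceptions marked in the text.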

Additional observations from a re-analysis of the deposited data

Results flagged for a closer look

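The genotype difference changed between stages in 3 tiles of the imprinted regions, by the z test on the difference of 2 differences with Benjamini-Hochberg adjustment over 85087 tiles, which compares libraries and not conditions. From SC to CP the TKO minus WT difference of the MEST tile (34 CpGs) grew by 28.3 points and that of the ZNF331 tile (15 CpGs) by 27.3 points. From CME to CP it grew by 27.2 points at the MEST tile, by 28.4 points at the ZNF331 tile and by 25.2 points at the PLAGL1 tile of 5 CpGs. With means over CpGs in place of pooled reads, the ZNF331 tile was called in neither change. The MEST tile was at 34.2%, 34.4% and 53.7% in TKO (SC, CME, CP), against 47.2%, 46.4% and 38.4% in WT at the same stages. The ZNF331 tile was at 61.1%, 63.8% and 77.5% in TKO, against 67.7%, 71.5% and 56.8% in WT. At both, TKO CP was above and WT CP below the earlier libraries of its genotype. The mitochondrial C share differed between WT SC or WT CME and the other libraries, and its part in these changes was not tested.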

How the results depend on the processing

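No paired analysis was possible because each genotype and stage has 1 library, other than the limma model. That model sets TKO against WT within each of 3 stages, and the stages stand in for replicates. The region difference of NNAT ranged over 10 settings from 38.9 to 51.5 points at SC, 43.9 to 64.1 at CME and 40.8 to 50.5 at CP. The other 9 regions gave 264 such values, of which 2 were past 25 points, between -25.1 and 28.6. The median genotype difference over the regions ranged from -4.87 to -2.34 points at SC, from -7.59 to -4.44 at CME and from -0.0825 to 5.00 at CP. NNAT was called higher in TKO at each stage under every tile setting that was run, by whichever of its tiles had enough CpGs.

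Counts of called tiles below are of the tiles in the regions, with the number called over the whole genome in brackets. They are out of 19 tiles in the regions and 85087 in all, with 4 exceptions. With 30 reads these were 16 and 51379, and with 10 CpGs a tile 14 and 42333. On the plus strand alone they were 16 and 54321, and on the minus strand alone 16 and 54571. With 40 points, the changes from SC to CP and from CME to CP had 0 calls (1639 and 1561). With 15 points, TKO CP against WT CP had 6 (14724), WT CM against WT SC 2 (5558), TKO CP against TKO CME 3 (1937), the change from SC to CP 5 (11078) and from SC to CME 1 (818), and 3 regions passed the size at CP. With means over CpGs, TKO CP against WT CP had 4 (10127), all higher, the last MEST tile (27.5 points) among them. In that setting the change from SC to CP had 1 (4359), a MEST tile. The change from CME to CP then had 2 (4465), of MEST and PLAGL1. The ZNF331 tile was called in neither.

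With the deepest CpG of each tile alone, TKO against WT had 4 at SC, 3 higher and 1 lower (5996), 4 at CME, 3 higher and 1 lower (5899), and 5 at CP, all higher (10971). The lower ones were a MEST tile at SC (-26.3 points) and a PEG3 tile at CME (-38.0 points). Those at CP took in the last MEST tile (41.0 points) and the ZNF331 tile (29.3 points). In that setting WT CP against CME (3962) and WT CM against SC (3366) had 1 lower each, and TKO CME against SC (233), TKO CP against CME (965) and the changes from CME to CP (6101) and from SC to CME (91) had 1 higher each.

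With 30 reads, TKO against WT had 1 at SC (3968) and 1 at CME (3858). With 10 CpGs a tile it had 1 at SC (3390), 1 at CME (3306) and 1 at CP (5283), because the second NNAT tile and the PLAGL1 tile hold fewer. The 5283 are of 42333 tiles, where the main setting had 10209 higher and 39 lower of 85087. With the plus strand alone, WT CP against CME (1401), WT CM against CP (37), WT CM against SC (1241) and the change from SC to CP (2863) had 1 each, and 2 regions passed the size at CP. The change from CME to CP then had 3 (2784), of which 2 gained and 1, the second NNAT tile, lost. On that strand TKO CP against WT CP had 4 (6641), all higher. Besides the NNAT tiles, these were the last MEST tile (29.2 points) and the ZNF331 tile (28.6 points). With the minus strand alone, TKO against WT had 1 at each of SC, CME and CP (4115, 3974 and 6731), the change from CME to CP had 1 (2850), and 2 regions passed the size at SC, 1 higher and 1 lower. Except where fewer CpGs or tiles could be tested, the cause was not tested. The PLAGL1 tile could not be tested with 10 CpGs a tile or on a single strand. In the band of 20 to 80% the share of CpGs was 65.1%, 62.0% and 62.4% in TKO (SC, CME, CP), against 68.8%, 68.4%, 69.5% and 68.6% in WT (SC, CME, CP, CM).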
